A study of Gallus gallus with 8 samples.

Results

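The genes described here encode the proteins of the cytosolic ribosome, measured in the cranial neural fold and the cranial neural plate of the chick embryo at Hamburger and Hamilton stage 8. Members were chosen by gene symbol: all RPL and RPS genes with a number, the stalk genes RPLP0 to RPLP2 and RPSA, without the RPS6K kinases. This gave 65 of the 13009 genes that the array's annotation names, 43 of the large and 22 of the small subunit. Each gene is represented by its probe set with the highest mean intensity over the 8 arrays, so the tissue difference played no part in the choice.

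Ribosomes consist of a small subunit, which reads the messenger RNA, and a large subunit, which joins amino acids. Each ribosomal protein stands in a ribosome in a fixed ratio to the others, and cells adjust the synthesis of the whole set together, through transcription, in which MYC takes part, and through mTOR, which controls the translation of these mRNAs by way of a pyrimidine tract at their 5' end (the TOP motif). In mouse and human, reduced dosage of single ribosomal proteins causes Diamond-Blackfan anaemia, often with craniofacial defects, and loss of ribosome assembly factors such as TCOF1 depletes the cranial neural crest. The neural fold contains the future neural crest.

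Each tissue gave 4 samples from embryos of fertile eggs incubated at 38 degrees Celsius, with no strain, genotype or agent named in the labels, and the series text describes the plate piece as ventral. The text names 80 to 114 embryos with n = 4, and the labels say neither how embryos were divided among samples nor which samples share a day. The p-values therefore reflect only scatter among these 4 samples per tissue, of each probe set and shared over all tested probe sets. That scatter can be technical. Labelling began from 6 µg of total RNA per sample and all arrays as deposited shared a 2% trimmed mean of 500.1. The values are therefore levels relative to the other transcripts of the same array, and a change of all mRNA per cell, or in the number of ribosomes, was not measured. In tissue pieces, fewer cells of a type and less RNA per cell cannot be told apart.

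Markers separated the tissues in the direction of their labels. Of 10 markers of neural fold and crest, 9 were higher in neural fold and 0 lower, and of 6 tested markers of ventral neural plate, 5 were lower in neural fold and 0 higher. The neural plate pieces also held transcripts of the notochord and prechordal plate, the midline tissue under the plate, with 3 of 5 markers higher in neural plate. Summed log2 intensity of these 5 markers was 50.4 to 52.0 on the neural plate arrays and 37.2 to 39.6 on the neural fold arrays. Of 4 tested endoderm genes, 1 (SOX17) was higher in neural plate, where the summed log2 intensity of all listed endoderm markers measured was 47.9 to 49.1, against 41.5 to 47.4 in neural fold. Of 3 tested blood and endothelial genes 0 were called (1 as deposited), but all 3 had values below 0 (median -1.06). The sums were 35.6 to 38.3 in neural plate and 27.8 to 34.0 in neural fold. As in the groups that follow, they cover all 5 measured genes, dim genes that were not tested included. Of 4 tested mesoderm genes 0 were called, with sums of 39.7 to 43.2 in neural plate and 36.1 to 39.8 in neural fold. Of 4 tested genes of non-neural ectoderm, 1 (CDH1) was higher in neural fold, where the sums were 41.7 to 43.9, against 37.7 to 40.5 in neural plate. PAX7, MSX2, GSC and SOX17 passed the filter on dim probe sets only through the tissue where they were high, so their calls add nothing to these counts as a test. The part of these other tissues in any value below was not tested. As deposited, array 1 of neural fold and of neural plate had medians of 195.7 and 182.1, against 105.3 to 121.6 on the other 6.

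No ribosomal protein gene passed the test for a difference between neural fold and neural plate. Of 65 members, all of which passed the filter on dim probe sets, 0 were higher and 0 lower at an adjusted p under 0.05 (limma), where 0.694% of all 23063 tested probe sets were higher and 0.585% lower (1.28% in either direction). With a share that low, 0 calls among 65 genes say little by themselves. The unadjusted p was under 0.05 for 0 members, against 8.26% of all tested probe sets, and the smallest unadjusted p was 0.137. Values of the tissues did not overlap for 0 members, against 6.71% of all tested probe sets. The log2 changes, neural fold minus neural plate, had a median of 0.0053 and ran from -0.41 to 0.40, with 34 above and 31 below 0. The median over all tested probe sets was -0.00056. In size, 54 of the 65 changes lay under 0.1 and 61 under 0.2, with a median of 0.042, against 0.187 over all tested probe sets and 0.065 over the brightest 1% of them. That brightest set of 385 probe sets includes 73 of members. These changes are after quantile normalization, which would reduce a shift shared by the brightest probe sets. As deposited, 59 members had changes above 0 and 6 below, with a median of 0.084.

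**Figure D1:**
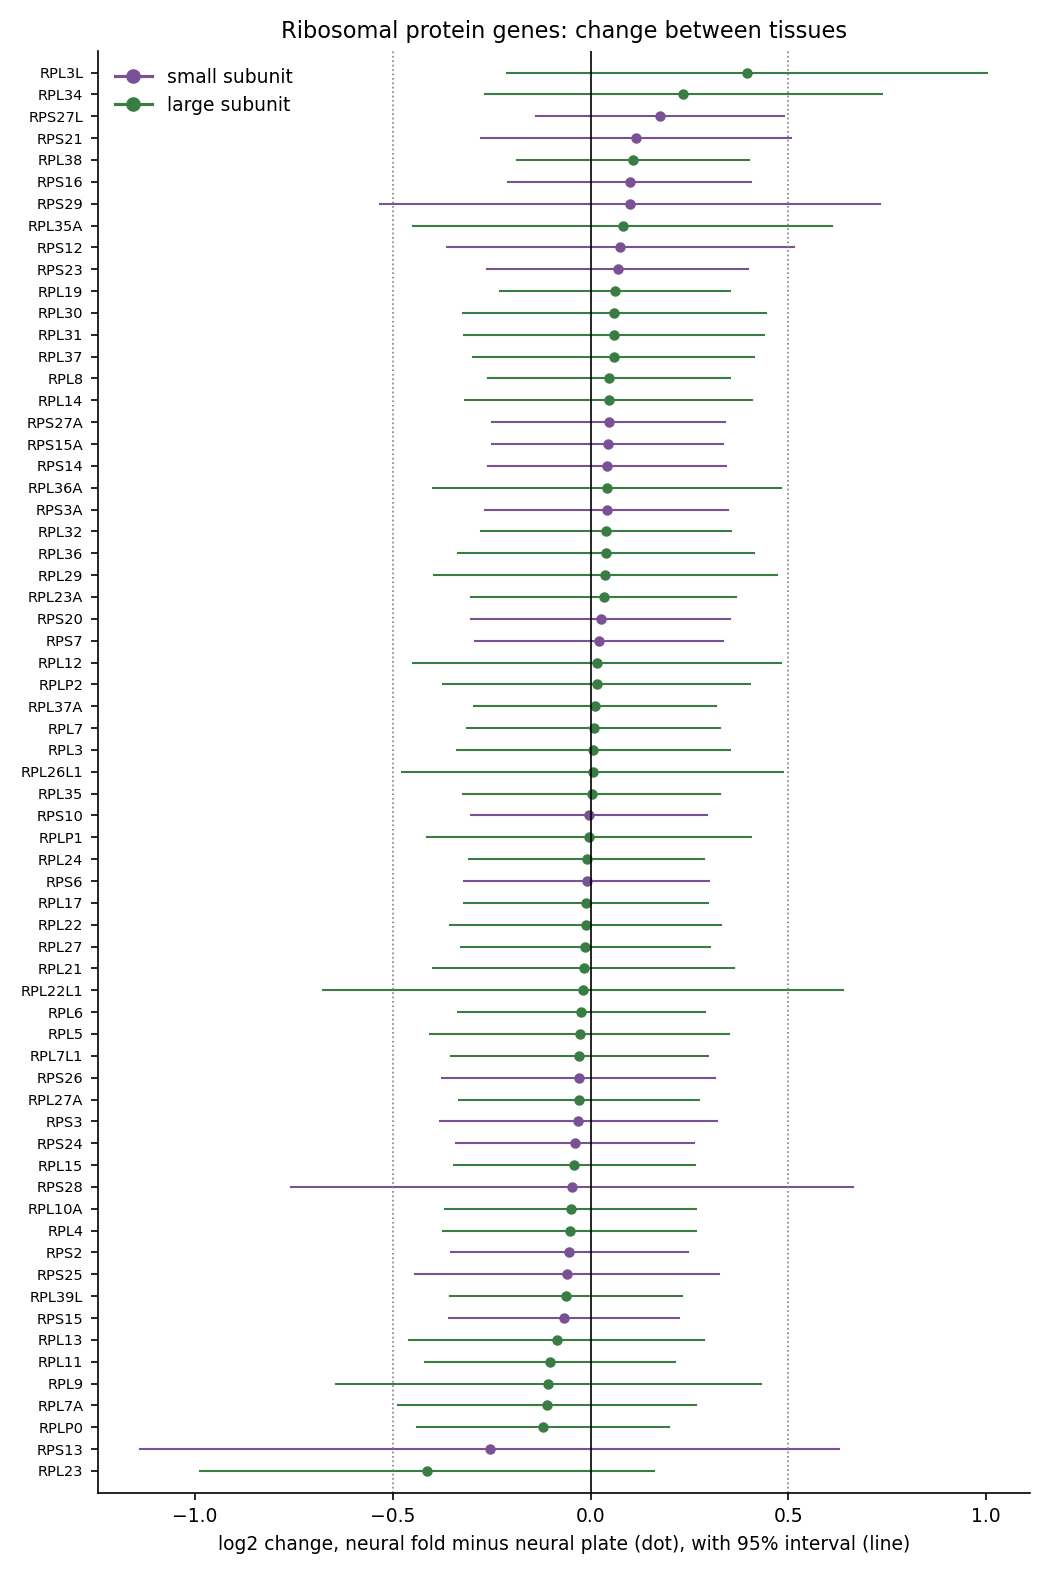
Log2 change between neural fold and neural plate (horizontal axis) for the 65 ribosomal protein genes (vertical axis, in order of the change), with the 95% interval of the limma fit as a line and dotted lines at -0.5 and 0.5. All 65 intervals include 0, and 54 lie between the dotted lines.

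A p-value that misses the threshold does not show equal levels, so the intervals set what these arrays allow. The 95% interval of the change lay within -0.5 and 0.5, a 1.41-fold difference in either direction, for 54 of 65 members, and within 2-fold for 63. The exceptions at 2-fold were RPS13 (-1.14 to 0.63) and RPL3L (-0.21 to 1.00, just past the limit before rounding). The distance from the change to the end of its interval had a median of 0.33 over members. The fit shares its estimate of the spread over all tested probe sets, so the p-values and intervals of members depend on other probe sets too. After quantile normalization, members varied less than most. Their median SD within a tissue was 0.12 on the log2 scale, against 0.40 over all tested probe sets. It was 0.15 over the brightest 1%, member probe sets included. The count within 0.5 depended on the processing. With the spread allowed to depend on intensity, 56 intervals lay within 0.5 and 29 within 0.25. As deposited, 37 lay within 0.5, and with median centring 0 did, where the median distance to the end was 0.65. Without each single array, 38 to 48 lay within 0.5. In each of these fits 0 members were called.

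The small subunit binds mRNA and carries the decoding site. Its 22 genes had changes of -0.26 to 0.18 with a median of 0.024, 12 above and 10 below 0. RPS2, a protein near the mRNA entry channel, had log2 intensities of 16.15, 15.99, 16.02 and 15.96 on the neural fold arrays 1 to 4 and 16.15, 16.02, 16.08 and 16.08 on the neural plate arrays. These overlap, and the change was -0.05 ± 0.13 (SE, limma adjusted p = 1.00). RPS6, the substrate of the S6 kinases downstream of mTOR, changed by -0.01 ± 0.13. RPS27A, made as a fusion with ubiquitin, had means of 15.65 ± 0.04 and 15.61 ± 0.07 (SD, n = 4). RPS7, which binds the p53 regulator MDM2 in human cells, changed by 0.02 ± 0.14.

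RPS27L, a paralog of RPS27 induced by p53 in human cells, had the largest positive change of the small subunit. Its log2 intensity was 9.87, 9.91, 9.92 and 10.10 in neural fold and 9.81, 9.89, 9.70 and 9.69 in neural plate. The lowest neural fold array lay below the highest neural plate array, and the change of 0.18 ± 0.14 was not past the threshold (1.13-fold, limma adjusted p = 0.96). RPS27 itself is not analysed here. RPS29, a small zinc-binding protein, had a change of 0.10 ± 0.28. Its neural plate array 4, at 14.20, lay apart from the other neural plate arrays at 15.06 to 15.21, and neural fold array 2, at 14.54, was the lowest of its tissue.

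For RPS13, a protein of the small subunit, probe sets differed. Its leading probe set read 8.48, 8.71, 7.65 and 7.72 in neural fold and 9.30, 8.52, 7.78 and 7.97 in neural plate, with a change of -0.26 ± 0.39 (limma adjusted p = 1.00). Of its other tested probe sets, one changed by 1.18 ± 0.29 (unadjusted p = 0.0033, adjusted p = 0.14), one by 0.40 ± 0.16 (adjusted p = 0.51) and one by -0.38 ± 0.30. None passed the threshold after quantile normalization. The probe set at 1.18 read 6.73, 7.25, 7.35 and 7.33 in neural fold and 5.44, 5.58, 6.32 and 6.58 in neural plate, was above background on 6 of 8 arrays, and as deposited had an adjusted p of 0.025. Its neural plate mean of 5.98 lay below the limit of 6.43 that the filter set, so it was tested only through the tissue where it was high, and that p supports no difference. The probe set at -0.38 had a neural fold mean of 6.30, also below that limit, and was above background on 4 of 8 arrays. It was thus tested only through neural plate, and its direction adds no support either. A further probe set, annotated to both GNAL and RPS13 and so outside the rule, averaged 15.74 ± 0.08 across the neural fold arrays and 15.72 ± 0.20 across the neural plate arrays (SD, n = 4), a change of 0.02 ± 0.15. On the mean of its tested probe sets, those at 1.18 and -0.38 included, RPS13 had a change of 0.24 (adjusted p = 0.86). This was of opposite sign to the leading one, and the leading probe set alone gave 0.05 without neural plate array 1.

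The large subunit holds the peptidyl transferase centre and the exit tunnel. Its 43 genes had a median change of 0.0028, from -0.41 to 0.40, 22 above and 21 below 0. RPL23, which binds MDM2 in human cells, had the largest negative change. Its log2 intensity was 13.17, 13.26, 13.37 and 13.58 in neural fold and 13.22, 13.59, 14.38 and 13.84 in neural plate. Neural plate array 1 lay within the neural fold range and array 3 lay highest, and the change was -0.41 ± 0.25 (1.33-fold higher in neural plate, 95% interval -0.99 to 0.16, limma adjusted p = 0.85). With single arrays left out it ranged from -0.59 without neural plate array 1 (unadjusted p = 0.031, adjusted p = 0.38) to -0.21 without neural plate array 3. The first of these was the only one of 24 settings, the reported one included, in which a member had an unadjusted p under 0.05. Its second probe set, dimmer, changed by 0.11 ± 0.16, and the mean of both gave -0.15.

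RPL34 and RPL38 had the largest positive changes of large-subunit genes measured in the brightest 1%. RPL34 read 15.25, 15.15, 15.42 and 15.56 in neural fold and 15.07, 14.61, 15.55 and 15.21 in neural plate, where array 2 lay lowest and array 3 as high as the neural fold arrays. The change was 0.23 ± 0.22 (limma adjusted p = 1.00). RPL38, in which mutation alters the axial skeleton and Hox mRNA translation in mouse, read 15.88, 15.95, 15.96 and 15.90 in neural fold and 15.88, 15.84, 15.83 and 15.72 in neural plate. The lowest neural fold value equalled the highest neural plate value, and the change of 0.11 ± 0.13 (1.08-fold, adjusted p = 1.00) had an upper limit of 0.40. Its 4 other probe sets changed by 0.21, 0.16, 0.04 and -0.15.

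RPLP0, RPLP1 and RPLP2 form the stalk that recruits the translation factors. RPLP0 averaged 15.23 ± 0.12 over the neural fold and 15.35 ± 0.09 over the neural plate arrays (SD, n = 4), RPLP1 had means of 15.40 ± 0.20 and 15.40 ± 0.23, and RPLP2 of 13.49 ± 0.16 and 13.48 ± 0.22. Their changes were -0.12, -0.0044 and 0.015, all with intervals inside -0.5 and 0.5. RPL5 and RPL11, which carry the 5S rRNA and bind MDM2 when assembly fails, changed by -0.03 ± 0.17 and -0.10 ± 0.14. RPL11 read 15.04, 15.21, 15.19 and 15.21 in neural fold and 15.10, 15.28, 15.38 and 15.29 in neural plate, ranges that overlap.

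Paralogs also gave 0 calls, where 1.28% of all tested probe sets were called, and 0 calls among so few genes say little about them. RPL22L1, a paralog of RPL22, read 12.48, 13.20, 13.31 and 13.34 in neural fold and 12.43, 13.16, 13.40 and 13.40 in neural plate. Array 1 was low in both tissues, and the change between tissues was -0.02 ± 0.29. RPL22 changed by -0.01 ± 0.15 and read 14.65 on array 1 of both tissues. RPL7L1, a relative of RPL7 known from ribosome assembly, changed by -0.03 ± 0.14 and RPL7 by 0.0082 ± 0.14. A dimmer probe set of RPL7L1 had a mean of 7.22 in neural fold and 8.32 in neural plate, a change of -1.10 ± 0.61 (adjusted p = 0.79). RPL3L, the striated-muscle paralog of RPL3 in mammals, was close to background and above it on 7 of 8 arrays. It read 7.76, 7.11, 7.35 and 7.03 in neural fold and 6.43, 7.29, 6.63 and 7.31 in neural plate, overlapping ranges with a change of 0.40 ± 0.27 (adjusted p = 0.90), beside 0.0072 ± 0.15 for RPL3. For RPL39L and RPL26L1, RefSeq lists RPL39 and RPL26 as other names of the same chicken genes, and they changed by -0.06 ± 0.13 and 0.0053 ± 0.21.

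**Figure D2:**
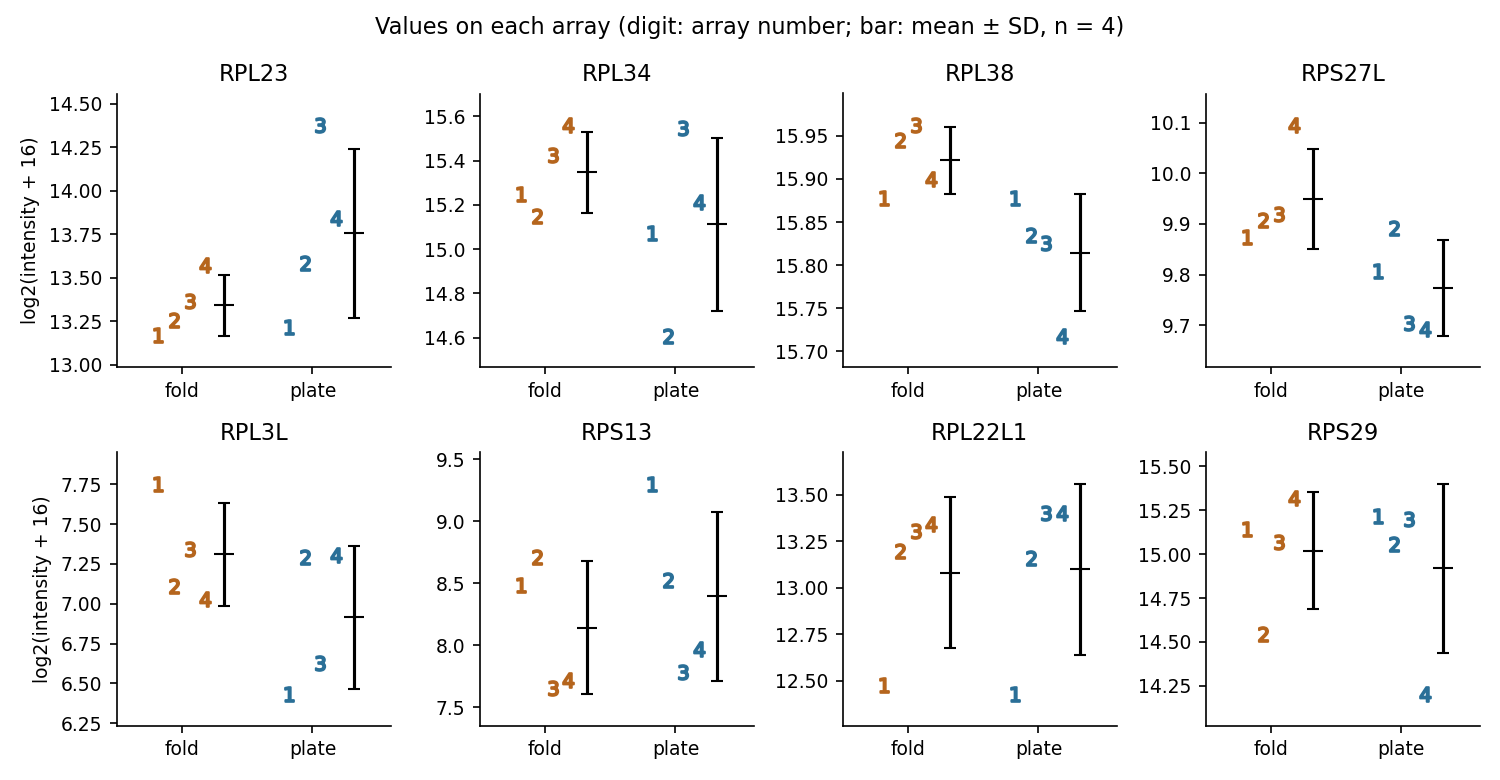
Log2(intensity + 16) after quantile normalization (vertical axis, a scale of its own in each panel) of 8 ribosomal protein genes on each neural fold and neural plate array, drawn as the array's number, with the mean and SD (n = 4) in black. The tissues overlap or touch in all 8 panels, and RPL22L1 is low on array 1 of both tissues.

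Groups by disease or by position on the ribosome gave 0 calls, where 1.28% of all tested probe sets were called. At that share, 0 calls in lists this short say little about them. Of 22 listed Diamond-Blackfan anaemia genes, 17 were measured under the listed symbol. Of these 0 were higher and 0 lower, with a median of -0.0039 and a range of -0.11 to 0.10. RPL26 is not counted among the 17, since it was measured as RPL26L1. Within the 17, RPS24 changed by -0.04 ± 0.13, RPS26 by -0.03 ± 0.15 and RPL35A by 0.08 ± 0.23. RPL35A read 13.75, 13.81, 14.30 and 14.41 in neural fold and 13.77, 14.10, 14.38 and 13.69 in neural plate. Of 9 listed proteins around the exit tunnel, 7 were measured under the listed symbol, with 0 called, a median of 0.0028 and a range of -0.05 to 0.06. RPL26 and RPL39 are not counted among the 7, since they were measured as RPL26L1 (0.0053) and RPL39L (-0.06). After quantile normalization RPL19, one of the 7, had an SD of 0.03 in neural fold and 0.06 in neural plate around means of 15.95 and 15.89. Its deposited intensities ran from 58792.9 to 73776.2 in neural fold and from 50392.2 to 72041.8 in neural plate, so its small SD holds only on the normalized scale.

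Some ribosomal proteins lie outside the symbol rule. The gene for RPSA, the protein also known as the laminin receptor, bears the symbol RPSAP58 in chicken, and its 5 probe sets changed by -0.05 to 0.08. RPS4Y1, which RefSeq also lists as RPS4, changed by -0.05 ± 0.14, and RACK1, a scaffold on the small subunit, by -0.0034 ± 0.14, with 0 of these probe sets past the threshold.

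The members' other probe sets were tested too. The 65 genes have 138 probe sets, 31 genes having 1 and the others up to 7, and 125 passed the filter. Of the 60 tested probe sets that did not lead, 0 were past the threshold (1 as deposited, of RPS13) and 57 had changes under 0.5 in size, with a median of -0.012. Over all tested probe sets, 1.28% were past it (1.4% as deposited), so 0 of 60 says little. Unadjusted p (limma) was under 0.05 for 2 of the 60, both of RPS13, against 8.26% of all tested probe sets.

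Arrays 1 lay apart from the others in many members. Arrays 1 of both tissues lay below all 6 other arrays in 20 members and above them in 13. Thus 33 of 65 were split between arrays 1 and the others, where 0 were split by tissue. A split of 2 arrays from 6 arises by chance more often than one of 4 from 4, so these counts are not like for like. The split of arrays 1 is a general feature of the arrays, since 44.8% of all tested probe sets were split in this way, against 50.8% of the members. Of the brightest 1%, member probe sets included, 58.7% were split. The mean of arrays 1 minus that of the others was larger in size than the tissue change in 54 members (83.1%), as in 74.9% of all tested probe sets. A contrast of 2 arrays with 6 varies more than one of 4 with 4, and the difference between these shares was not tested. RPL26L1 read 15.10 and 15.08 on arrays 1 and 15.57 to 15.77 on the others, and RPL5 read 15.29 and 15.16 on arrays 1 and 14.79 to 14.99 on the others. The cause was not tested.

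**Figure D3:**
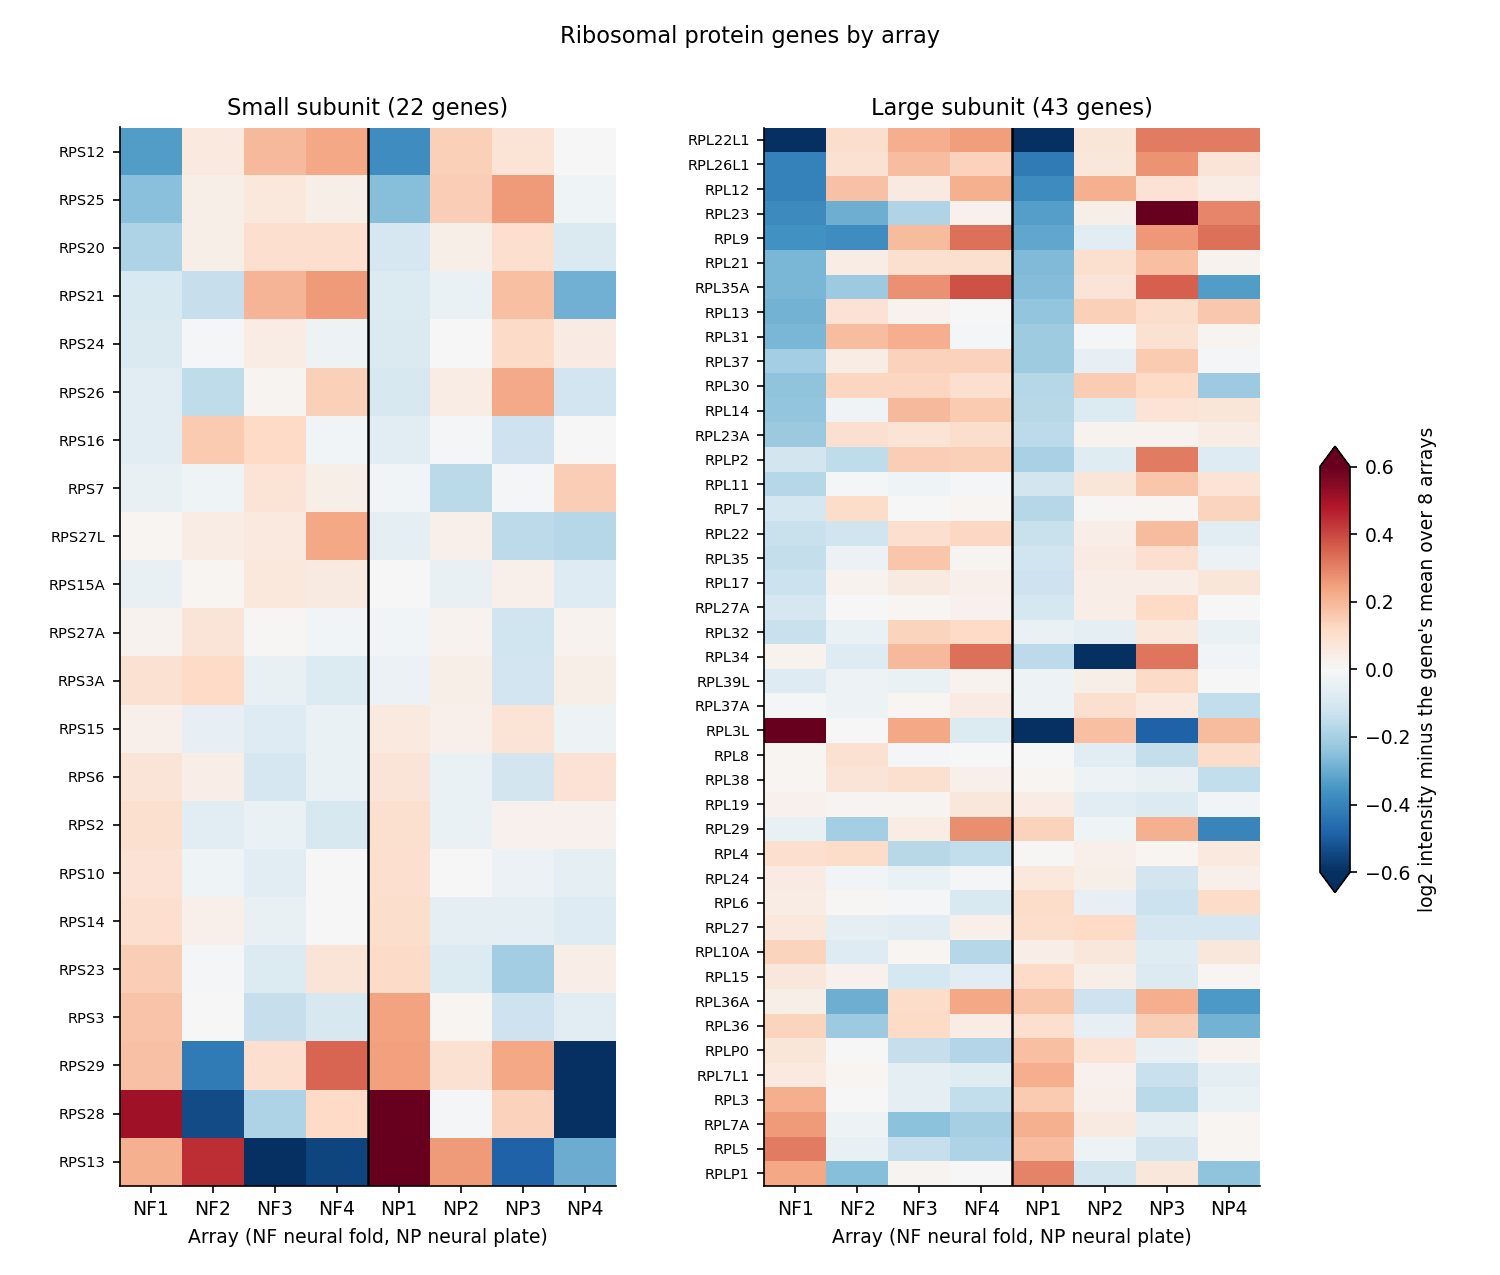
Colour map of log2 intensity minus the gene's mean over the 8 arrays, after quantile normalization, for the 22 small-subunit and 43 large-subunit genes (rows, ordered by their values on arrays 1) on each array (columns, NF neural fold, NP neural plate), with colours limited at -0.6 and 0.6. Columns NF1 and NP1 carry similar colours for most genes, with RPL3L opposite, while no block of rows separates the NF from the NP columns.

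A second pattern across arrays, chosen for description after its values were seen, joined RPS28, RPS29, RPS21, RPS26, RPL29, RPL36, RPL36A, RPL37A and RPLP1. These 9 of the 65 members were lowest on array 2 among the neural fold arrays and on array 4 among the neural plate arrays, as were 6.91% of all tested probe sets. More members, 21, were lowest on arrays 1 of both tissues (30.1% of all tested probe sets). Some other pairings held numbers similar to the 9. Array 3 was lowest in both tissues for 9 members (5.01% of all tested probe sets). Neural fold array 4 and neural plate array 3 were lowest for 8 (4.98%). The differences from these shares were not tested. RPS28 read 14.91, 13.86, 14.21 and 14.51 in neural fold and 14.99, 14.38, 14.53 and 13.76 in neural plate. RPL36A read 15.20, 14.87, 15.28 and 15.40 in neural fold and 15.33, 15.04, 15.38 and 14.82 in neural plate. The pattern runs within tissues, and their changes between tissues were -0.05 ± 0.31 for RPS28 and 0.04 ± 0.19 for RPL36A.

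As deposited, with only the scaling of the authors' software, the members had a median change of 0.084 with 59 above and 6 below 0, and again 0 called higher and 0 lower, where 0.715% of tested probe sets were higher and 0.681% lower (1.4% in either direction). The unadjusted p was under 0.05 for 0 members (7.99% of tested probe sets), and the tissues did not overlap for 0 members (6.51% of tested probe sets). The median over all tested probe sets was -0.0080 and that of the 312 probe sets in the brightest 1% that belong to no member was 0.056. The median deviation of the members from their own means was 0.05, -0.05, -0.03 and 0.22 on the neural fold arrays and 0.02, 0.07, -0.07 and -0.14 on the neural plate arrays. Neural fold array 4 and neural plate array 4 lay at opposite ends and the other 6 overlapped. The median as deposited was 0.028 without the first and 0.050 without the second, with 43 and 50 members above 0, and -0.013 without both, with 27 above 0. Since these arrays were picked for their extreme values, leaving them out had to lower the median. After quantile normalization the deviations were -0.0060, -0.0034, 0.02 and 0.03 in neural fold and -0.03, 0.03, 0.06 and 0.00090 in neural plate.

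**Figure D4:**
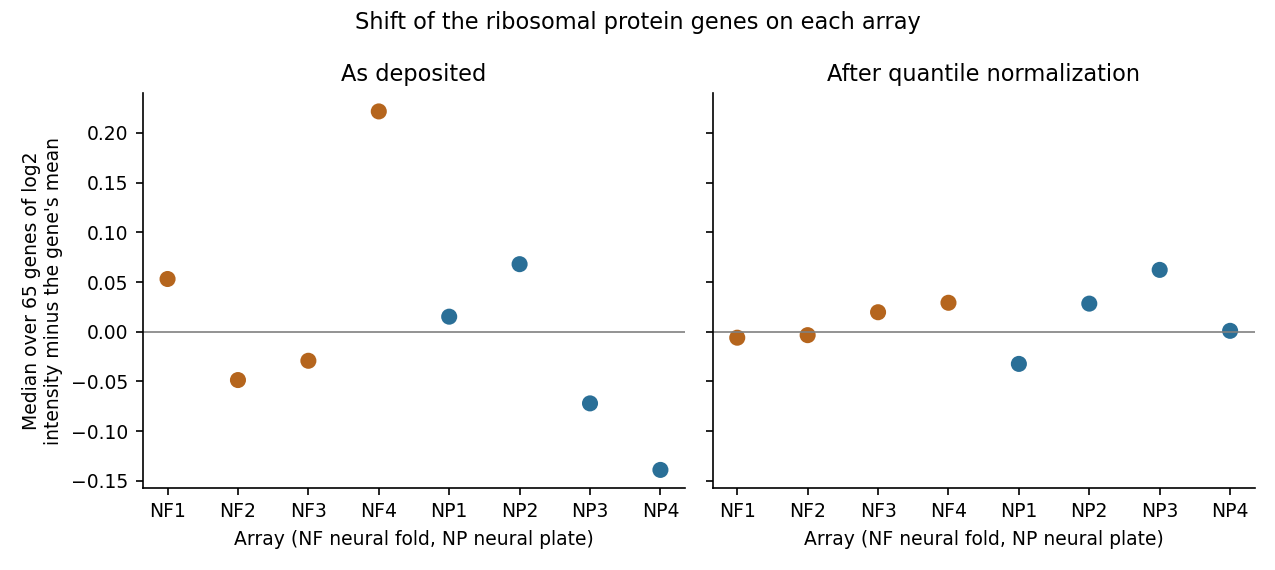
Median over the 65 ribosomal protein genes of log2 intensity minus the gene's own mean (vertical axis, log2 units) on each array (horizontal axis, neural fold in brown, neural plate in blue), as deposited and after quantile normalization. As deposited, neural fold array 4 is highest at 0.22 and neural plate array 4 lowest at -0.14, while after normalization all 8 arrays lie between -0.03 and 0.06.

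The members lie high on the intensity scale, and whether this bears on their shift as deposited was not tested. On average over the arrays, 57 of 65 members ranked in the brightest 1% of probe sets, and 73 of the 385 probe sets there were of members. The others were RPL22L1, RPL23, RPL7L1, RPLP2, RPL31, RPS27L, RPS13 and RPL3L. Intensity depends on probe sequence as well as on abundance, so this is no order of mRNA levels. The share of the summed deposited intensity of all named genes taken by the members was 13.5%, 11.6%, 11.9% and 13.7% in neural fold and 13.4%, 12.5%, 11.8% and 11.2% in neural plate, ranges that overlap. Quantile normalization gives all arrays the same distribution, and a shift shared by the brightest probe sets would be reduced by it. The files hold no saturation flags, and compression of differences at the top of the scale was not tested.

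Genes that build ribosomes were examined next. Of 74 tested genes of ribosome biogenesis and rRNA synthesis, 0 were higher and 0 lower, where 1.28% of all tested probe sets were called in either direction. With that share, 0 calls among 74 genes say little about the list. Their changes had a median of 0.048 and a range of -0.32 to 0.80. NCL and NPM1, abundant nucleolar proteins, changed by 0.0031 ± 0.14 and 0.05 ± 0.16. TCOF1, mutated in Treacher Collins syndrome, averaged 11.34 ± 0.27 over the neural fold and 11.29 ± 0.17 over the neural plate arrays (SD, n = 4), a change of 0.05 ± 0.18 (limma adjusted p = 1.00). POLR1C, a polymerase subunit also mutated in that syndrome, changed by 0.01 ± 0.14, and the polymerase subunit POLR1A by -0.01 ± 0.14. The largest value, of POLR1B, was 0.80 ± 0.42 (adjusted p = 0.77), from a probe set above background on only 2 of 4 neural plate arrays.

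Of 19 tested genes listed as further TOP mRNAs, 0 were called in either direction (median 0.0088), where 1.28% of all tested probe sets were called. For so few genes, 0 calls say little. The motif itself was not checked in chicken sequences. EEF1A1, the elongation factor that brings tRNA to the ribosome, changed by 0.0088 ± 0.15, PABPC1, a poly(A)-binding protein, by 0.02 ± 0.14, and TPT1 by 0.01 ± 0.13. VIM, the intermediate filament vimentin, had the largest value at -0.54 ± 0.24 (limma adjusted p = 0.62). The 66 tested genes of the mitochondrial ribosome, a separate set of proteins, also gave 0 calls, which says little beside a share of 1.28%. Their changes had a median of 0.019 and a range of -0.57 to 0.30. Their median size was 0.092, against 0.042 for the cytosolic members. The difference in size between these sets was not tested, and they lie at different intensities.

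Among regulators, MYC, a transcription factor that activates ribosome synthesis genes, was higher in neural fold. It read 10.14, 10.39, 10.34 and 10.57 in neural fold and 9.37, 9.41, 9.59 and 9.50 in neural plate, without overlap. The change was 0.89 ± 0.15 (1.86-fold, limma adjusted p = 0.030). MYC was the only 1 of 28 genes of the mTOR and MYC list past the threshold, with 0 lower, where 1.28% of all tested probe sets were called. The call was lost without any single array other than neural fold array 1 (adjusted p = 0.055 to 0.12), with no filter (0.11) and with median centring (0.65), while the change stayed between 0.82 and 0.98 without any one array. MYCN changed by 0.03 ± 0.17, MTOR by 0.10 ± 0.18, and RPS6KB1, an S6 kinase, by -0.10 ± 0.23.

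Of 15 tested genes of ribosome stress and the p53 response, 1 was higher and 1 lower, the latter a gene tested only through the tissue where it was high. Over all tested probe sets, 1.28% were called in either direction. BTG2, an antiproliferative p53 target, read 11.55, 11.07, 10.99 and 10.92 in neural fold and 9.69, 9.59, 9.15 and 8.95 in neural plate, without overlap. Its change was 1.79 ± 0.23 (3.45-fold, limma adjusted p = 0.0080). CDKN1A, the cell cycle inhibitor p21 and a main p53 target, had a neural plate mean of 1.88-fold the background limit of the neural fold arrays. All 4 neural fold arrays lay below background, so the limit stands in for their level. Neural plate arrays 1 and 3 lay below that mean. CDKN1A read 5.64, 6.15, 5.90 and 5.46 in neural fold and 7.05, 7.70, 7.14 and 8.06 in neural plate. Its neural fold mean of 5.79 lay below the filter's limit of 6.43, so it entered the test through the neural plate arrays alone and its adjusted p of 0.022 (limma) supports no difference. It dropped out of the test without neural plate array 4, and its call was lost with the array number as a block (adjusted p = 0.060), with the intensity trend or no filter (both 0.052), and without neural fold array 1 (0.056), 3 (0.070) or 4 (0.087) or neural plate array 2 (0.084). GADD45A (0.32 ± 0.14, adjusted p = 0.58) and MDM2 (-0.08 ± 0.42) were not past the threshold, and the median of the list was -0.024.

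**Figure D5:**
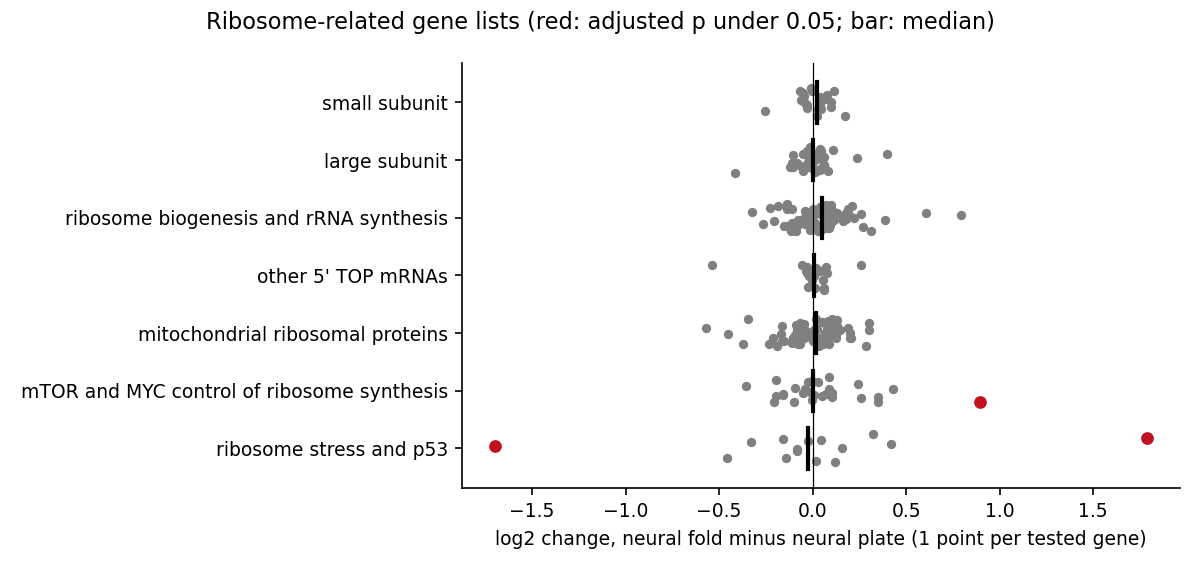
Log2 change between neural fold and neural plate (horizontal axis) of each tested gene (points) in the small and large ribosomal subunits and in 5 ribosome-related lists, with the list's median as a black bar and genes with adjusted p under 0.05 in red. The red points are MYC at 0.89, BTG2 at 1.79 and CDKN1A at -1.70 as fitted, and both subunits lie within -0.41 and 0.40. CDKN1A was tested only through the neural plate arrays and lay below background on the neural fold arrays, so its red point supports no difference.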

How the data were processed

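Per the submitters' processing notes, the authors made the deposited intensity values with GCOS, Affymetrix's software (version and settings not given in the sources used here), and each is a linear intensity for 1 of 38535 probe sets on 1 of 8 arrays. Of the columns, 0 were left unused. The 96 Affymetrix control probe sets were left out, log2(intensity + 16) was quantile normalized, since array medians differed by 0.80, and the 23063 probe sets with a mean at or above the 40th percentile were tested in R 4.3.3 by limma 3.58.1 (linear model, moderated variance), with Benjamini-Hochberg adjustment over all of them. Changes carry the model's SE, and the fit was checked on simulated data. Background was the 95th percentile of 59 control probe sets on each array. Symbols are those of the platform's 2016 annotation, updated through Entrez IDs (0 changed), and all 65 members were found in RefSeq. The files name no build, and no coordinates or sequences are given.

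Members, lists, tests and most alternatives were chosen with earlier results of these data known. Named members were the 8 largest changes in each direction, the 3 brightest and dimmest, paralogs, stalk and MDM2-binding genes, RPL38 and anaemia genes (34 in all), and from other lists up to 4 genes past the threshold; other genes, such as RPS6, RPS28 and those given as examples of a list, were named after their values were seen. Same-numbered arrays deviated together from their tissue means (r = 0.62, 0.19, 0.29 and 0.21 for numbers 1 to 4), each over 0.1, and the numbers were taken as pairs in an alternative fit. Numbers 2 and 4 correlated better with another number (0.28 for both), and over the members alone number 4 gave -0.16. Only 4 arrays per tissue limit the precision.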

Additional observations from a re-analysis of the deposited data

Results flagged for a closer look

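Among 68 groups of 4 arrays (34 named members in both tissues), 5 held 1 array far from the other 3, judged by its gap over the whole range against Dixon's 95% critical value for 4 samples. Chance flags about 5% of groups, but these groups share arrays and are not independent. The share flagged over all tested probe sets was not computed, so the 5 are not read as a trait of these genes. RPL11 on neural fold array 1 read 15.04, against 15.19 to 15.21 on the others. RPL13 on neural plate array 1 read 15.20, against 15.54 to 15.59. RPL22L1 on neural fold array 1 read 12.48, against 13.20 to 13.34, and RPL26L1 on the same array 15.10, against 15.59 to 15.69. RPS29 on neural plate array 4 read 14.20, against 15.06 to 15.21. Of the 5, 4 lie on arrays numbered 1. Arrays 1 of both tissues lay apart from all other arrays in 44.8% of all tested probe sets. The cause was not tested.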

How the results depend on the processing

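Under all 23 alternatives (19 planned and 4 added after seeing the data), 0 members were called higher and 0 lower, and the smallest adjusted p of a named member was 0.34 (RPL23 without both arrays numbered 1). The members' median change was 0.084 as deposited, with or without the replicate block, 0.085 with median centring, and, as deposited, 0.050 with neural plate array 4 dropped, 0.028 with its neural fold counterpart dropped and -0.013 with neither kept, arrays picked for their extreme values. It was -0.0085 to 0.027 when each array was left out after quantile normalization. The cause was not tested. With the replicate number as a block the median was 0.0053, 398 probe sets were called in all, and no member's call changed. Of 781 values of named members under alternatives, 103 differed in sign from the reported one, 2 of them (both RPS13) among 91 values of members with changes of 0.2 or more. Over all probe sets, 295 were called, and 145 to 305 without each array. There were 151 with median centring, 863 when the model held a term for arrays 1, and 582 when both of these were dropped. As deposited, dropping neural fold array 4 left 163 calls, dropping neural plate array 4 left 150, and dropping both left 49, with fewer arrays. RPL3L fell below the filter at the 60th percentile. RPL3L was the 1 member not above background on all arrays. The leading probe set of RPS13 was above it on all 8 but dim, with a mean of 8.27. The probe set annotated to both GNAL and RPS13 had a mean of 15.73.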
